A study of Mus musculus with 8 samples.

Results

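The genes described here are 10 components of the NRF2 pathway and of glutathione metabolism, taken by symbol from a table of 24787 genes: Nfe2l2, Keap1, Nqo1, Hmox1, Gclc, Gclm, Txnrd1, Srxn1, Gsr and Gstm1. All 10 had a row, and all 10 passed the filter on low values. They were measured in 4T1 cells, a mouse mammary carcinoma line, in 4 libraries of cells labelled as an Etv5 knockdown by shRNA and in 4 libraries of cells with a control shRNA, whose genotype is labelled WT. The library names point to a single construct per group, sh2 for Etv5 and NT for the control, and no label gives the vector, the time after transduction or whether the libraries came from separate cultures, so p-values measure only the spread between these libraries, which may be technical. A gene's coverage value is read here as its mean read coverage per base after scaling for depth, which no source states. On that reading, levels of different genes are compared per length. Read depth is unknown.

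NRF2, encoded by Nfe2l2, is a transcription factor that is held at a low level by KEAP1, an adaptor that brings it to a cullin ubiquitin ligase. Oxidants and electrophiles modify cysteines of KEAP1, NRF2 then accumulates, pairs with a small MAF protein and binds antioxidant response elements near genes for glutathione synthesis, thioredoxin reduction and detoxification. In many carcinomas this programme is raised and protects the tumour cell from oxidative stress and from drugs.

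The core of the antioxidant response element, spelled TGACNNNGC, was searched on both strands of the promoter windows that RefSeq gives on GRCm38.p6, each from 250 bases before a gene's start to 50 bases after it. Windows were found for 7 of the 10 genes, namely Nfe2l2, Srxn1, Gclm, Txnrd1, Keap1, Nqo1 and Gstm1. The core stood in windows of 4 of these 7 genes (57.1%), against 17.2% of the 8977 tested genes with a window. Some genes have several windows, and counted by window the shares were 40% of 10 and 14.6% of 11430. The 10 genes were chosen as parts of the NRF2 pathway, so a higher share is no independent finding. The matches are shown with 8 bases on either side and the core, or its reverse complement, in capitals; these are all the matches among the 10 genes. The windows lie at chr2:75704614-75704913 on the minus strand for Nfe2l2, and on the plus strand at chr2:152105274-152105573 for Srxn1, chr3:122245307-122245606 for Gclm and chr10:82858956-82859255 for Txnrd1.
Nfe2l2: agcccaccTGACTCCGCcatgcccc
Srxn1: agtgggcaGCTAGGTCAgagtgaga
Gclm: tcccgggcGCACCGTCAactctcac
Txnrd1: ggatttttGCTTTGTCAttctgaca
In the order shown, the core began 240 bases before the start of Nfe2l2, 28 bases after that of Srxn1, 134 bases before that of Gclm and 92 bases before the second of 3 annotated starts of Txnrd1. Gstm1, the only one of the 10 genes called lower below, held no core in either of its windows. The window of its upstream start lies at chr3:108017924-108018223 on the minus strand, and it is printed because this is the gene that differed.
Gstm1: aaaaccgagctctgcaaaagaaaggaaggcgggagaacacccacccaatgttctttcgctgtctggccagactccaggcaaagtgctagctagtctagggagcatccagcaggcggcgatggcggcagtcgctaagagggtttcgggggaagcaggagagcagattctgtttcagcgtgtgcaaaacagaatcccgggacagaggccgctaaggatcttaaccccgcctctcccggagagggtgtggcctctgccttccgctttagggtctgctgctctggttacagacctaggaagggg
A match is a string of letters and not evidence of binding, and elements farther from a start lie outside these windows.

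Etv5 itself had coverage values of 13, 11.2, 7.52 and 12.7 in the Etv5 shRNA libraries, against 15.2, 15.1, 11.7 and 14.4 in the control shRNA libraries. The groups overlapped, and p was 0.0857 in a two-sided exact permutation test, whose 70 assignments allow no p under 0.0286. Of its 50-base stretches 26.8% are also found in the processed pseudogene Gm4798, so part of its coverage is uncertain. The means were 11.1 ± 2.52 and 14.1 ± 1.65 (SD, n = 4 each), at a log2 fold change of -0.33 (adjusted p 0.819 by limma). With Etv5 shRNA replicate 3 left out, p was 0.171 in the exact permutation test over 35 assignments, where 0.0571 was the smallest possible. The library labelled Etv5 shRNA replicate 3 stood apart from the rest: its values summed to 390495, against 254792 to 308393 in the other 7 libraries, and genes named as ribosomal proteins held 21.8% of that sum, against 7.81% to 11.9%. Results are therefore given with and without it. Control shRNA replicate 3 held the highest of the other 7 in both measures, 308393 and 11.9%, and was kept in both sets of libraries. All 8 epithelial markers passed the filter, and their summed level ran from 1358 to 3176 with the Etv5 shRNA and from 1335 to 1816 with the control shRNA. The 3176 was in Etv5 shRNA replicate 3, where Krt18 had 1534 and Krt8 856. In Etv5 shRNA replicates 1, 2 and 4 Krt18 had 633, 545 and 646, and Krt8 395, 344 and 461. Of the 8 markers, Cdh1, which codes for E-cadherin, was higher without Etv5 shRNA replicate 3 (log2 fold change 0.71, adjusted p 0.00455 by limma), at 65.5, 64.4, 31 and 60.1 in Etv5 shRNA libraries and 40.9, 37.1, 34.3 and 41.8 in control shRNA libraries. The other 7 were not called in either set of libraries, and over 8 libraries Cdh1 was not called either (adjusted p 0.806 by limma). Of 12 leukocyte markers only Cd68 passed the filter, at 2.89 to 3.26 in Etv5 shRNA libraries and 2.89 to 4.43 in control shRNA libraries, while Cd3e, Adgre1 and Tyrobp were at 0 throughout. Fibroblast markers summed to 0.641 to 2.59 with the Etv5 shRNA and to 2.76 to 3.6 with the control shRNA over 8 genes, of which only Pdgfra passed the filter and 2 were at 0 throughout. The 0.641 was in Etv5 shRNA replicate 3. Pdgfra had 2.15, 1.92, 0.519 and 1.91 with the Etv5 shRNA and 3.43, 3.54, 2.54 and 3.47 with the control shRNA, without overlap. It was lower without Etv5 shRNA replicate 3 (log2 fold change -0.50, adjusted p 0.0452 by limma) and not called over 8 libraries (adjusted p 0.435 by limma). No endothelial or hepatocyte marker exceeded 0.163. The summed level of the 12 leukocyte markers ran from 3.05 to 3.72 with the Etv5 shRNA and from 3.56 to 5.31 with the control shRNA. The part of these markers in the results was not tested.

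Of the 10 genes, 1 was called lower with the Etv5 shRNA, none was called higher and 9 were not called, by limma on log2(value + 1) with Benjamini-Hochberg adjustment over 11731 tested genes at an adjusted p under 0.05. Over all tested genes 0.494% were called, of which 57 were lower (0.486%) and 1 was higher (0.00852%). With the library scaling estimated by median of ratios the split was 49 lower and 7 higher, and Gstm1 was not called. The same single gene, Gstm1, was called without Etv5 shRNA replicate 3, where 3.14% of all tested genes were called, 2.05% lower and 1.08% higher. The median log2 fold change of the 10 genes was -0.24 over 8 libraries, beside -0.114 for all tested genes, and 0.02 without Etv5 shRNA replicate 3, beside -0.003. The sensor pair, the glutathione and thioredoxin genes other than Gstm1, and the classical targets Nqo1 and Hmox1 did not pass the test in either set of libraries.

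**Figure D1:**
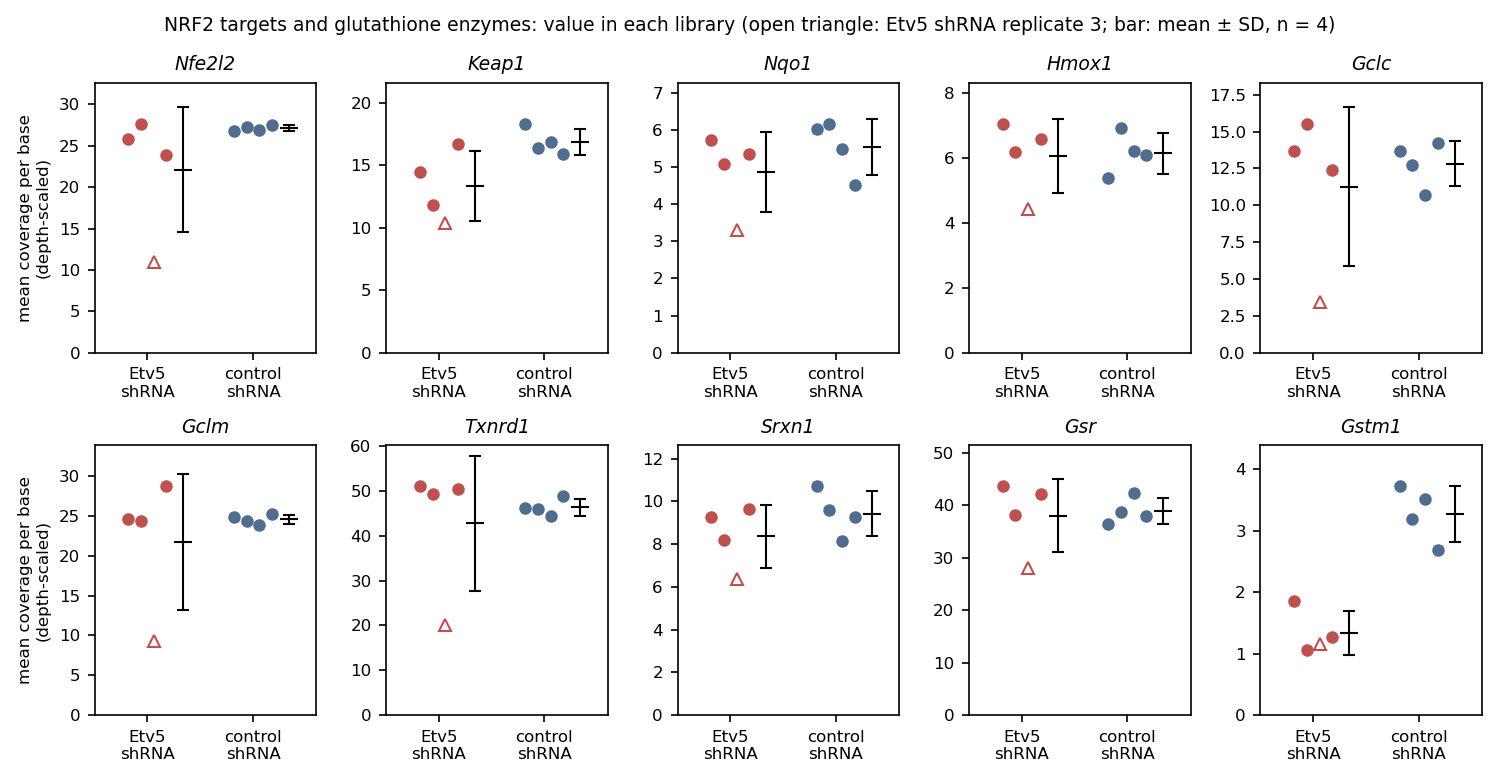
Coverage value (depth-scaled mean coverage per base, axes from 0) of each of the 10 genes in each library, Etv5 shRNA in red on the left and control shRNA in blue on the right, with Etv5 shRNA replicate 3 as an open triangle and the mean ± SD of 4 libraries beside the points. Gstm1 is the only gene whose groups do not overlap, and the triangle is the lowest of all 8 libraries in the other 9 panels.

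The sensor pair came first in the pathway's order. Nfe2l2 (chr2:75675513-75704641, minus strand, mm10) had coverage values of 25.8, 27.6, 11 and 23.9 in Etv5 shRNA libraries, against 26.8, 27.3, 26.9 and 27.5 in control shRNA libraries. The third Etv5 shRNA library was the low one, and the groups overlapped. The means were 22.1 ± 7.54 and 27.1 ± 0.334 (SD, n = 4 each), and the control libraries varied by only 1.23% of their mean. The log2 fold change was -0.36 (95% interval -0.96 to 0.23; adjusted p 0.879 by limma) over 8 libraries and -0.07 (-0.25 to 0.10; adjusted p 0.649 by limma) with that library left out.

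Keap1 (chr9:21229730-21239361, minus strand), the inhibitor of NRF2, stood at 14.5, 11.8, 10.4 and 16.7 in Etv5 shRNA libraries and at 18.3, 16.4, 16.9 and 15.9 in control shRNA libraries. The fourth Etv5 shRNA library lay within the control range and the other 3 lay below it. The log2 fold change was -0.34 (95% interval -0.70 to 0.03; adjusted p 0.747 by limma), and -0.24 (-0.49 to 0.02; adjusted p 0.306 by limma) without the third library. Gm16754, annotated as antisense, shares 10.4% of the 50-base stretches found along the longest Keap1 transcript. The TruSeq RNA v2 kit named in the labels does not mark strand, so reads of these genes cannot be told apart there. The ratio of Nfe2l2 to Keap1 within a library, which no scaling of the library changes, was 1.78, 2.33, 1.05 and 1.44 with the Etv5 shRNA and 1.46, 1.66, 1.59 and 1.73 with the control shRNA. These ranges overlapped, with a wider spread on the Etv5 shRNA side.

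Glutamate-cysteine ligase carries out the first step of glutathione synthesis, with Gclc coding for the catalytic and Gclm for the modifier subunit. Gclc (chr9:77754535-77794485, plus strand) had values of 13.7, 15.5, 3.41 and 12.4 in Etv5 shRNA libraries and of 13.7, 12.7, 10.7 and 14.2 in control shRNA libraries. Apart from the third Etv5 shRNA library, which held 24.6% of the mean of the other 3 in its group, the groups overlapped, at 12.4 to 15.5 with the Etv5 shRNA and 10.7 to 14.2 with the control shRNA. Gclm (chr3:122245557-122270732, plus strand) had values of 24.6, 24.3, 9.23 and 28.7, against 24.8, 24.4, 23.9 and 25.2 with the control shRNA. Again the third Etv5 shRNA library alone lay below the controls, while the fourth lay above them. Without the third library the log2 fold changes were 0.11 for Gclc (95% interval -0.15 to 0.36; adjusted p 0.644 by limma) and 0.07 for Gclm (-0.12 to 0.26; adjusted p 0.703 by limma). Coverage of the modifier exceeded that of the catalytic subunit in every library, at ratios of Gclm to Gclc of 1.79, 1.57, 2.71 and 2.31 with the Etv5 shRNA and of 1.81, 1.92, 2.23 and 1.78 with the control shRNA.

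Gsr and Txnrd1 code for the NADPH-dependent reductases that recycle glutathione and thioredoxin, and they were the most abundant of the 10. Gsr (chr8:33652523-33698163, plus strand) had values of 43.6, 38.2, 28.1 and 42.2 in Etv5 shRNA libraries and of 36.4, 38.7, 42.3 and 38.0 in control shRNA libraries. The third Etv5 shRNA library lay below the controls, and the groups overlapped. Its log2 fold change was -0.05 (95% interval -0.41 to 0.31; adjusted p 0.93 by limma) over 8 libraries, and 0.09 (-0.11 to 0.28; adjusted p 0.624 by limma) without that library.

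Txnrd1 (chr10:82833951-82897712, plus strand) had values of 51, 49.4, 20.1 and 50.4 in Etv5 shRNA libraries and of 46.2, 45.9, 44.4 and 48.8 in control shRNA libraries. All Etv5 shRNA libraries but the third lay above every control. Without the third the groups therefore did not overlap, as for 20.2% of all tested genes in those libraries (10.4% lower, 9.76% higher), at means of 50.3 ± 0.808 (SD, n = 3) and 46.3 ± 1.82 (SD, n = 4). The difference did not pass the test, at a log2 fold change of 0.12 (95% interval -0.05 to 0.29; adjusted p 0.442 by limma). Over 8 libraries it was -0.20 (-0.85 to 0.44; adjusted p 0.884 by limma).

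Srxn1 (chr2:152105516-152111376, plus strand) codes for sulfiredoxin, which repairs overoxidised peroxiredoxins. Its values were 9.26, 8.21, 6.35 and 9.64 with the Etv5 shRNA and 10.7, 9.59, 8.13 and 9.28 with the control shRNA, with overlapping groups and a log2 fold change of -0.16 (95% interval -0.53 to 0.20; adjusted p 0.879 by limma). Nqo1 (chr8:107388225-107403206, minus strand), the quinone reductase most used as a readout of NRF2, had 5.72, 5.07, 3.30 and 5.36 with the Etv5 shRNA and 6.02, 6.15, 5.49 and 4.50 with the control shRNA. Hmox1 (chr8:75093621-75100589, plus strand), the inducible haem oxygenase, had 7.03, 6.17, 4.41 and 6.56 with the Etv5 shRNA and 5.36, 6.90, 6.20 and 6.07 with the control shRNA. Both genes overlapped between the groups and were lowest in the third Etv5 shRNA library. Without it the log2 fold change was -0.03 for Nqo1 (95% interval -0.28 to 0.22), 0.09 for Hmox1 (-0.13 to 0.31) and -0.05 for Srxn1 (-0.29 to 0.18), with adjusted p of 0.912, 0.65 and 0.819 by limma.

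Gstm1 (chr3:108012255-108017973, minus strand), a cytosolic mu-class glutathione S-transferase that joins glutathione to electrophiles, was lower with the Etv5 shRNA. Its values were 1.86, 1.06, 1.16 and 1.27 in Etv5 shRNA libraries and 3.72, 3.19, 3.52 and 2.68 in control shRNA libraries. Every Etv5 shRNA library lay below every control. Groups that did not overlap were found for 9.1% of all tested genes, 7.58% lower and 1.52% higher, and for 1 of these 10. The means of 1.34 ± 0.36 and 3.28 ± 0.455 (SD, n = 4 each) differed 2.46-fold. The log2 fold change was -0.88 (95% interval -1.21 to -0.54; SE 0.147; adjusted p 0.0483 by limma), and -0.85 (-1.15 to -0.54; adjusted p 0.0112 by limma) with Etv5 shRNA replicate 3 left out. In RNA of whole cultures, fewer cells with a transcript and less of it per cell cannot be told apart.

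The call of Gstm1 over 8 libraries lay close to the threshold. It was lost when any control shRNA library or Etv5 shRNA replicate 2 or 4 was left out (adjusted p up to 0.226 by limma), and under 8 of 10 other settings over 8 libraries, with adjusted p up to 0.186. With Etv5 shRNA replicate 3 left out it held under all 6 further settings tried, at adjusted p of 0.0109 to 0.0197 by limma. Equal sums and no filter, which ended the call over 8 libraries, were not tried there, nor was leaving out a further library.

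**Figure D2:**
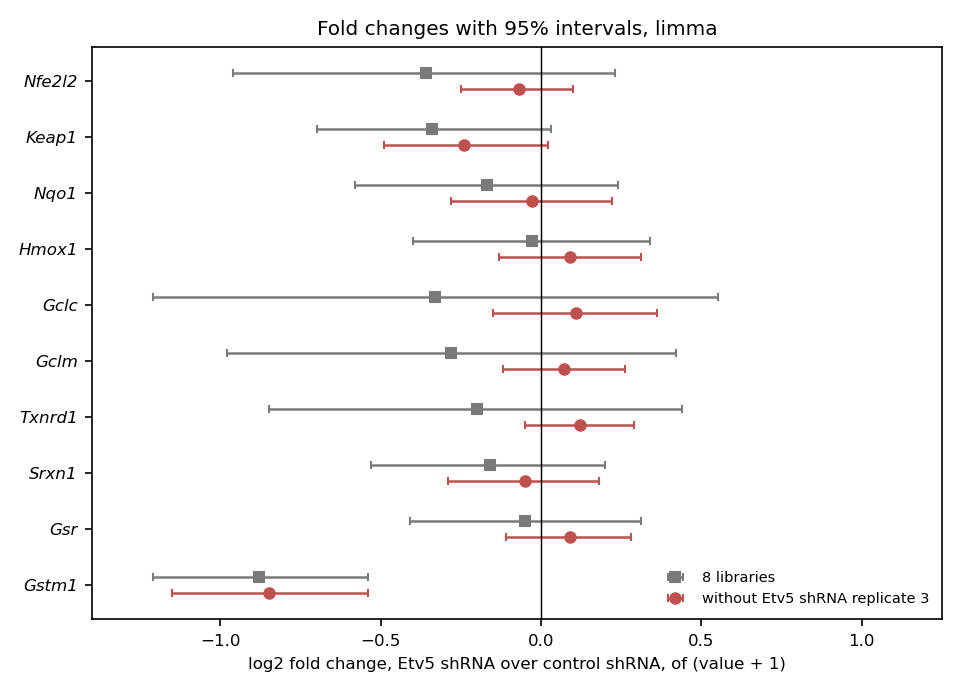
Log2 fold change of (value + 1), Etv5 shRNA over control shRNA, with its 95% interval from limma, over 8 libraries (grey squares) and without Etv5 shRNA replicate 3 (red circles). For the 9 genes other than Gstm1 each interval holds 0, and without that library each lies between -0.49 and 0.36.

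The intervals were narrower over the 7 libraries without Etv5 shRNA replicate 3. There the log2 fold changes of the 9 genes not called ran from -0.24 for Keap1 to 0.12 for Txnrd1, with 5 positive and 4 negative. The outermost bounds of their 95% intervals were -0.49 and 0.36, so a change by 1 on the log2(value + 1) scale lay outside each of the 9 intervals. Over 8 libraries the outermost bounds were -1.21 and 0.55, and the median width of the intervals was 0.82, against 0.44 without the third library.

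The third Etv5 shRNA library was the lowest of its group for 9 of the 10 genes, with Gstm1 as the exception. The log2 ratio of its value to the mean of the other 3 libraries of its group, on (value + 1), ran from -1.75 for Gclc through -1.39 for Gclm, -1.28 for Txnrd1 and -1.16 for Nfe2l2 to -0.15 for Gstm1. Across all tested genes, split by transcript length into 4 bins of like size, the median of this ratio was 0.41 in the bin with the shortest transcripts and -1.09 in the bin with the longest. The longest annotated transcripts of the 10 genes span 1289 bases for Gstm1 to 5589 bases for Gclm. Gclc, at 3423 bases, and Nfe2l2, at 2475 bases, fell below the 10th percentiles of their bins, -1.42 and -1.07; the other 8 did not. Gstm1, Hmox1 and Nqo1 were under 2051 bases, in the bin whose median was positive. Control shRNA replicate 3, kept in both sets, leaned the same way less strongly. Its median deviation from each gene's median over the 8 libraries, in log2(value + 1), was 0.24 for the shortest and -0.28 for the longest bin. For Etv5 shRNA replicate 3 these were 0.33 and -1.04. The remaining libraries ran from -0.09 to 0.02 and from -0.02 to 0.08.

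**Figure D3:**
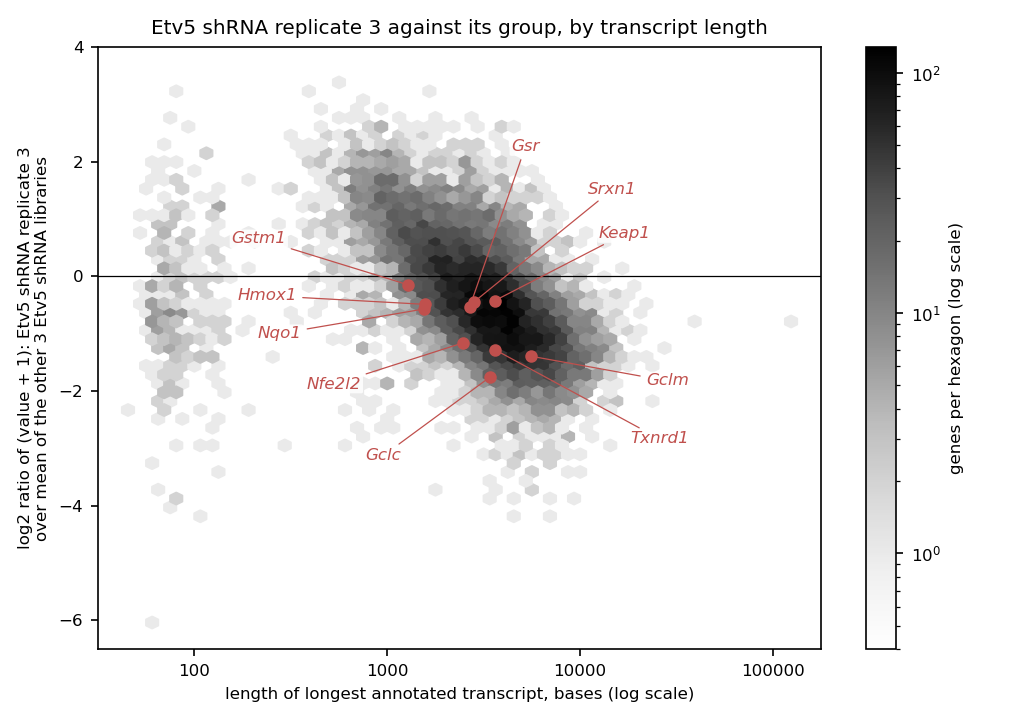
Log2 ratio of (value + 1) in Etv5 shRNA replicate 3 to the mean of the other 3 Etv5 shRNA libraries, against the length of the longest annotated transcript on a log axis, with tested genes in grey hexagons (darker for more genes) and the 10 genes in red. The median is 0.41 in the bin of shortest and -1.09 in the bin of longest transcripts, and all 10 genes lie below 0, from -0.15 for Gstm1 to -1.75 for Gclc.

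Per length, the 10 genes covered a 14.1-fold range of levels in the control shRNA libraries. In falling order of their control means they were Txnrd1 (46.3), Gsr (38.8), Nfe2l2 (27.1), Gclm (24.6), Keap1 (16.9), Gclc (12.8), Srxn1 (9.42), Hmox1 (6.13), Nqo1 (5.54) and Gstm1 (3.28). Only the neighbours Hmox1 and Nqo1 overlapped in range over the control libraries, at 5.36 to 6.90 and 4.50 to 6.15. Txnrd1 stood above 91.3% of all tested genes and Gstm1 above 24.2%. Gstm1 was the lowest of the 10 in each of the 8 libraries.

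Gstm1 lies in a cluster of mu-class genes on chromosome 3 whose members resemble each other in sequence. Other genes share 23.1% of the 50-base stretches along the longest Gstm1 transcript, and the processed pseudogene Gstm2-ps1 shares the most (17.3%), so part of its coverage is uncertain. Among the 6 other genes of the cluster, Gstm2 and Gstm5 passed the filter, and Gstm3, Gstm4, Gstm6 and Gstm7 did not exceed 0.176 in any library. Gstm2 had values of 11.9, 8.15, 12.4 and 13.2 with the Etv5 shRNA and 12.7, 12.1, 15.8 and 11.5 with the control shRNA, overlapping, with a log2 fold change of -0.19 (95% interval -0.59 to 0.22; adjusted p 0.879 by limma). Gstm5 had 4.57, 5.80, 8.18 and 5.83 with the Etv5 shRNA and 5.23, 5.47, 8.62 and 4.20 with the control shRNA, at a log2 fold change of 0.06 (adjusted p 0.937 by limma). The ratio of Gstm2 to Gstm1 within a library was 6.42 to 10.7 with the Etv5 shRNA and 3.42 to 4.48 with the control shRNA, without overlap. This ratio was chosen after the values were seen.

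Profiles over the 8 libraries were compared with that of Gstm1 for tested genes outside the 10, leaving out predicted genes, clone-named genes and pseudogenes. The nearest were Acot1, Hsd17b11 and Plet1os, with root mean square differences of 0.0858, 0.127 and 0.132 in log2(value + 1) centred on the control mean. Acot1 averaged 2.5 ± 0.31 with the Etv5 shRNA and 5.18 ± 0.778 with the control shRNA, Hsd17b11 5.16 ± 0.842 and 9.66 ± 0.71, and Plet1os 15 ± 2.03 and 26.1 ± 2.46 (SD, n = 4 each). None of the 3 was called over 8 libraries, with adjusted p of 0.063, 0.067 and 0.0666 by limma.

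The wider pathway was described by 8 lists with 117 other genes, of which 99 passed the filter. Over 8 libraries 2 were lower, none was higher and 97 were not called, or 2.02% called against 0.494% of all tested genes. Without Etv5 shRNA replicate 3, 5 were lower, 2 were higher and 92 were not called, or 7.07% against 3.14%. The median log2 fold change of the 99 was 0.01 over 8 libraries and -0.05 without that library. Aldh3a1 and Mgst1 were the 2 called over 8 libraries; without that library Mgst2, Txnip and Glrx were also lower, and Chac1 and Mthfd2 were higher.

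Aldh3a1, an aldehyde dehydrogenase that oxidises lipid-derived and aromatic aldehydes, had the smallest adjusted p of these lists in either set of libraries. Its values were 2.40, 2.71, 1.91 and 2.36 with the Etv5 shRNA and 8.54, 7.40, 6.98 and 6.19 with the control shRNA. Even the highest Etv5 shRNA library lay well below the lowest control. The means were 2.35 ± 0.329 and 7.28 ± 0.982 (SD, n = 4 each), 3.10-fold lower, with a log2 fold change of -1.30 (95% interval -1.63 to -0.98; adjusted p 0.00483 by limma). The call held under all 24 alternatives, with adjusted p of at most 0.0389 by limma, and none of its 50-base stretches occurs in another annotated gene. It was 1 of 16 tested genes for quinone, aldehyde and carbonyl detoxification, of which none other was called in either set. Aox1 of that list had 2.69, 2.99, 0.724 and 2.75 with the Etv5 shRNA and 5.66, 4.93, 3.4 and 5.6 with the control shRNA. Its groups did not overlap, and adjusted p by limma was 0.431 over 8 libraries and 0.0582 without Etv5 shRNA replicate 3. Array quality weights and removal of length, or of length and GC, called Aox1 over 8 libraries. Without that library quantile normalisation, the replicate block and these removals called it.

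The membrane-bound microsomal transferases Mgst1 and Mgst2 were lower as well. Mgst1 had values of 3.28, 2.30, 2.75 and 3.17 with the Etv5 shRNA and 6.74, 7.72, 8.83 and 5.19 with the control shRNA, so the groups did not overlap. It was 2.48-fold lower, at a log2 fold change of -1.05 (95% interval -1.46 to -0.65; adjusted p 0.0489 by limma), and -1.04 (adjusted p 0.0101 by limma) with Etv5 shRNA replicate 3 left out. Its call ended when any other single library was dropped (adjusted p 0.0567 to 0.24 by limma), and under 6 of 10 other settings over 8 libraries (adjusted p up to 0.215 by limma). Mgst2 had 1.28, 1.61, 2.76 and 1.10 with the Etv5 shRNA and 4.44, 5.56, 5.2 and 2.50 with the control shRNA, and the third Etv5 shRNA library reached into the control range. Without that library Mgst2 was called, at a log2 fold change of -1.19 (95% interval -1.64 to -0.73; adjusted p 0.0152 by limma); over 8 libraries it was not (adjusted p 0.25 by limma), and array quality weights were the 1 of 10 other settings there that called it. These were the 2 called of 15 tested glutathione S-transferases. The abundant pi-class gene Gstp1 had values of 161 to 510 with the Etv5 shRNA and of 156 to 252 with the control shRNA, and was not called.

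**Figure D4:**
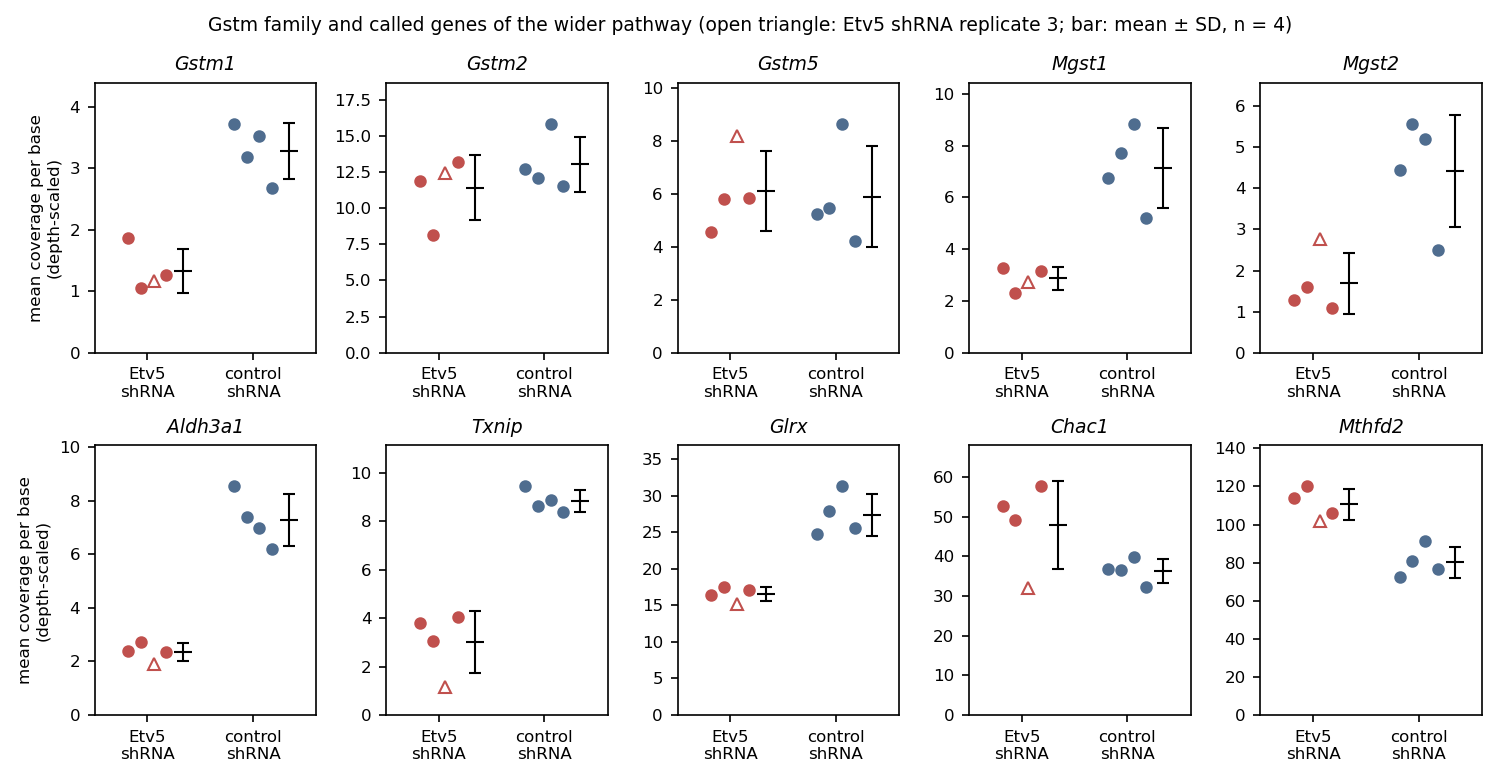
Coverage value (depth-scaled mean coverage per base, axes from 0) per library of Gstm1, its relatives Gstm2 and Gstm5, and the 7 genes of the wider lists called over 8 libraries or without Etv5 shRNA replicate 3 (open triangle), with Etv5 shRNA in red on the left, control shRNA in blue on the right and the mean ± SD of 4 libraries beside the points. The groups do not overlap for Gstm1, Mgst1, Aldh3a1, Txnip, Glrx and Mthfd2, and in Chac1 and Mgst2 they would not overlap without the triangle. The called genes were picked for their difference, so this is no added support. Of the 99 tested list genes, 14.1% were lower and 3.03% higher without overlap, against 7.58% and 1.52% of all tested genes. Without the triangle these shares were 21.2% and 8.08%, against 10.4% and 9.76%.

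Among thiol redox proteins, Txnip and Glrx were lower without the third Etv5 shRNA library, and over 8 libraries they were not called with the values as deposited. Of 10 other settings over 8 libraries, 5 called Txnip (median of ratios, quantile normalisation, array quality weights, length, and length and GC) and 3 called Glrx (quantile normalisation, no filter and array quality weights). Txnip, whose product binds thioredoxin and restrains glucose uptake, had 3.79, 3.07, 1.17 and 4.03 with the Etv5 shRNA and 9.44, 8.62, 8.86 and 8.37 with the control shRNA, without overlap. Its log2 fold change without that library was -1.09 (95% interval -1.31 to -0.87; adjusted p 0.000566 by limma), and the adjusted p over 8 libraries was 0.0826 by limma. Glrx, a glutaredoxin that removes glutathione from protein thiols, had 16.4, 17.5, 15.2 and 17.1 with the Etv5 shRNA and 24.8, 27.9, 31.3 and 25.6 with the control shRNA. No Etv5 shRNA library of Glrx reached the control range, and its log2 fold change was -0.65 (95% interval -0.87 to -0.44; adjusted p 0.00789 by limma) without that library and -0.69 (adjusted p 0.0666 by limma) over 8. The other 15 of 16 tested thioredoxins, peroxiredoxins and their partners were not called in either set.

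Higher without the third Etv5 shRNA library were Chac1 and Mthfd2. Chac1, whose product degrades glutathione, had 52.6, 49.2, 32.1 and 57.6 with the Etv5 shRNA and 36.7, 36.6, 39.8 and 32.3 with the control shRNA. Mthfd2, a mitochondrial folate enzyme that yields NADH or NADPH, had 114, 120, 102 and 106 with the Etv5 shRNA and 72.3, 80.9, 91.3 and 76.5 with the control shRNA. For Chac1 the third Etv5 shRNA library was the lowest of all 8, while for Mthfd2 every Etv5 shRNA library lay above every control. Their log2 fold changes without that library were 0.54 (adjusted p 0.0208 by limma) and 0.50 (adjusted p 0.0352 by limma), and over 8 libraries the adjusted p were 0.806 and 0.348. Chac1 and Glrx were the 2 called of 15 tested genes for glutathione synthesis, transport and recycling, and Mthfd2 was the 1 called of 10 that supply NADPH.

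The remaining 3 lists held no called gene in either set of libraries, with 12 tested regulators of NRF2, 6 peroxidases, catalase and superoxide dismutases, and 9 genes for haem and iron handling. Their most abundant members are given for comparison. Sqstm1, the autophagy adaptor that binds KEAP1, had 189, 175, 152 and 200 with the Etv5 shRNA and 248, 252, 277 and 219 with the control shRNA. Its groups did not overlap, and its log2 fold change was -0.48 over 8 libraries (adjusted p 0.415 by limma) and -0.40 without the third Etv5 shRNA library (adjusted p 0.0928 by limma). Nfe2l1, a relative of NRF2, had 27.8 to 53.8 with the Etv5 shRNA and 56.0 to 62.4 with the control shRNA and was not called (adjusted p 0.79 by limma). Array quality weights over 8 libraries, which called 27.1% of all tested genes, called both Sqstm1 and Nfe2l1. Without the third Etv5 shRNA library Sqstm1 was also called with quantile normalisation, with length removed, and with length and GC removed. Gpx1 and Sod1, with 218 to 528 and 134 to 610 in Etv5 shRNA libraries and 203 to 345 and 152 to 254 in controls, were highest in the third Etv5 shRNA library, as were the ferritin genes Fth1 and Ftl1.

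**Figure D5:**
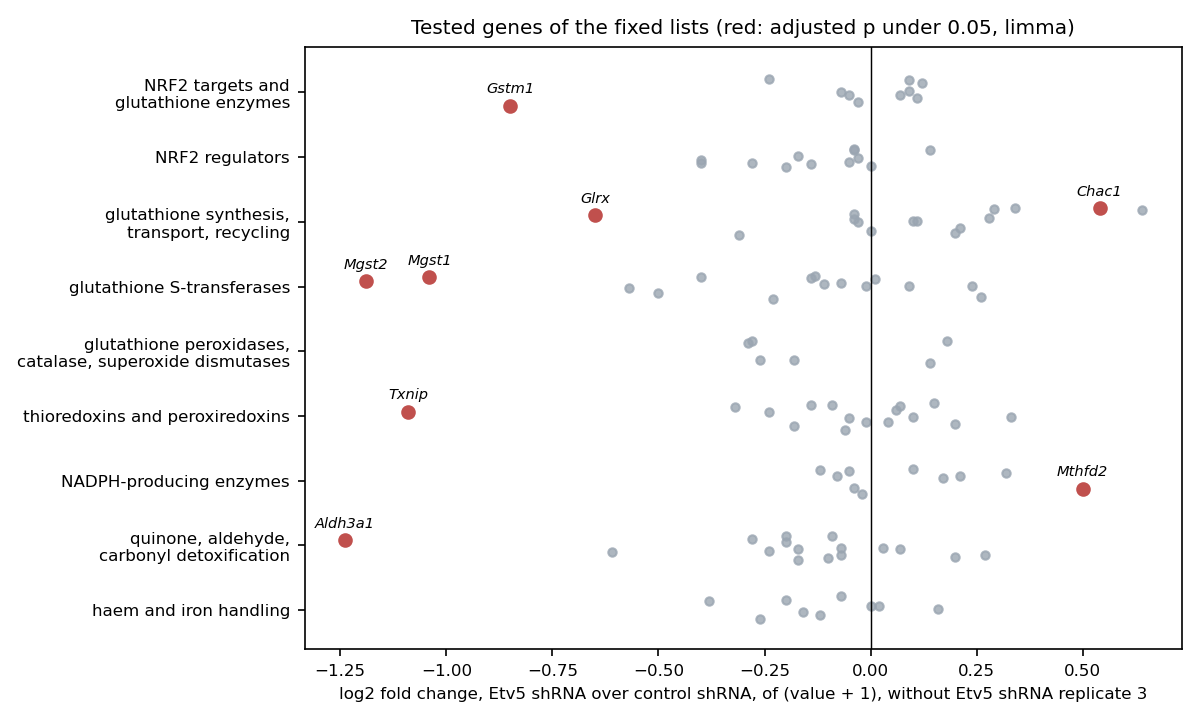
Log2 fold change of (value + 1), Etv5 shRNA over control shRNA, without Etv5 shRNA replicate 3, for each tested gene of the 10 and of the 8 wider lists, one point per gene with random vertical scatter. Named red points passed the test (adjusted p under 0.05 by limma), 6 of them lower and 2 higher, and the other genes lie between -0.61 and 0.64.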

How the data were processed

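Per the labels' protocols, total RNA of cultured cells was made into libraries with a TruSeq RNA v2 kit and sequenced on a NovaSeq instrument. The tool and build listed in the submitters' processing notes are STAR 2.7.10a and mm10. The deposited values are a signal, in columns that derive from coverage tracks per the file headers; reading them as depth-scaled mean coverage per base comes from the values themselves, and which program, annotation and scaling were used is not given in the sources. Depth is unknown, so no counting interval is given.

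Groups and replicate numbers came from the sample titles. Values were transformed as log2(value + 1), so log2 fold changes understate those of low genes; folds are ratios of mean values. A gene entered the test if 4 or more libraries reached 0.5. The fit used limma 3.58.1 (R 4.3.3), its variance prior following mean level and no covariate entering, and was checked on simulated data. Those data took the means and spread of the control libraries alone, without a deviant library or a length trend. The check therefore does not cover a library like Etv5 shRNA replicate 3. The text names Etv5, the 10 genes and the 3 nearest profiles to a called gene. It also names up to 4 called genes per list (or its 2 most abundant where none was called). Gstm2, Gstm5, Gstp1 and Aox1 were added after their values were seen, as were the markers named. The genes and lists were chosen with earlier results of these data known. Lengths (97.7% of rows), coordinates and shared stretches came from GENCODE mouse release 21 on mm10, promoters from RefSeq on GRCm38.p6. Alternatives tried were other scalings, filters, a pseudocount of 0.1, the replicate block, array weights, removal of length and GC trends by lowess (span 0.3), and leaving out each library.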

Additional observations from a re-analysis of the deposited data

Results flagged for a closer look

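In each group of 4 libraries, the highest or lowest library was compared with the other 3 by Dixon's ratio of gap to range at the 95% critical value for the 10 genes, Etv5 and the 7 called genes of the wider lists. Of 36 groups 1 passed, where chance gives 1.8. The groups came from the same libraries, and 7 of the genes were picked as called, so this count does not judge any library as a whole. Txnrd1 stood at 20.1 in Etv5 shRNA replicate 3, against 49.4 to 51 in the other 3 Etv5 shRNA libraries, a ratio of 0.948.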

How the results depend on the processing

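Read depth is unknown, so counting error could not be set beside any value, and 4 libraries a group limit the precision. Gstm1 kept a negative log2 fold change, -1.26 to -0.63, under all 24 alternatives, and so did Nfe2l2, Keap1 and Srxn1; Gstm1 was called under 10 of the 24 and Aldh3a1 under all 24. The cause of the changes below was not tested. Array quality weights are given although their estimate stopped before convergence.

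Of the 10 genes 1 was called over 8 libraries. The count was 0 with median-of-ratios scaling, equal sums, quantile normalisation, no filter, a pseudocount of 0.1, the replicate block, the length trend removed or the length and GC trend removed, 3 with array quality weights (Gstm1 and Keap1 lower, Gsr higher), and 0 to 1 on leaving out 1 library. With Etv5 shRNA replicate 3 left out, it was 1 under each of 6 further choices.

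Over all tested genes the count of 58 became 37 at pseudocount 0.1, 117 when the length trend was removed (94 lower, 23 higher), 167 with the length and GC trend removed (126 lower, 41 higher) and 3183 with array quality weights (1670 lower, 1513 higher). It ranged from 28 to 368 on leaving out 1 library, with 368 for Etv5 shRNA replicate 3 and at most 37 for any other. Quantile normalisation gave 66 lower and 8 higher, and median-of-ratios scaling moved the median log2 fold change of all tested genes to 0.0224, against -0.114 as deposited. With Etv5 shRNA replicate 3 left out, the counts were 361 (median of ratios), 409 (quantile), 354 (pseudocount 0.1), 930 (length), 1315 (length and GC) and 291 (replicate block).

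Of the wider lists 2 genes were called over 8 libraries. The count was 1 with equal sums, a pseudocount of 0.1 or the replicate block, 4 when the length trend was removed, 5 with the length and GC trend removed, 36 with array quality weights, and 1 to 7 on leaving out 1 library. Counts near 2 did not hold the same genes: median of ratios called Aldh3a1 and Txnip, no filter Aldh3a1 and Glrx, and quantile normalisation gave 3, Aldh3a1, Glrx and Txnip, each without Mgst1. Over 8 libraries Chac1 was called with array weights, and Mthfd2 with array weights or with length and GC removed. With Etv5 shRNA replicate 3 left out it was 7 (median of ratios, pseudocount 0.1), 9 (quantile, replicate block), 13 (length) and 17 (length and GC).

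Log2 fold changes that turned positive belonged to genes that were not called, apart from Gsr with array quality weights. Over 8 libraries Hmox1 (-0.03) gave 0.12 with median of ratios, 0.15 with quantile and 0.14 with array weights; Gsr (-0.05) gave 0.12 with median of ratios, 0.17 with array weights, 0.05 with length and 0.04 with length and GC; Nqo1 (-0.17) gave 0.02 with quantile. Array weights gave 0.05 for Gclc (-0.33), 0.01 for Gclm (-0.28) and 0.12 for Txnrd1 (-0.20).
With Etv5 shRNA replicate 3 left out, Nqo1 gave 0.05 with length and 0.02 with length and GC. In the order median of ratios, quantile, pseudocount 0.1, length, length and GC, and replicate block, Hmox1 gave 0.10, 0.10, 0.11, 0.17, 0.18 and 0.10, Gclc 0.12, 0.09, 0.11, 0.10, 0.07 and 0.03, Txnrd1 0.13, 0.10, 0.12, 0.10, 0.09 and 0.10, and Gsr 0.10, 0.09, 0.09, 0.11, 0.10 and 0.13. Gclm gave 0.08, 0.05, 0.07 and 0.00 in the first 4 and 0.05 with the block. On leaving out 1 library the ranges were -0.10 to 0.09 for Hmox1, -0.53 to 0.11 for Gclc, -0.45 to 0.07 for Gclm, -0.32 to 0.12 for Txnrd1 and -0.12 to 0.09 for Gsr.

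The replicate numbers were not taken as pairs. Deviations from the group means correlated across genes at 0.55, 0.09, 0.79 and 0.51 between libraries with the numbers 1 to 4, and not every library correlated best with its own number. With the replicate block 51 genes were called, 50 lower and 1 higher, none of them among the 10.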

Other observations

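ETV5 belongs to the ETS family of transcription factors, whose members bind sites with the letters GGAA. The string CCGGAAG, chosen after the data were seen, was searched on both strands of the same promoter windows. It stood in windows of 1 of 7 of the 10 genes, Nfe2l2 (14.3%), against 21.8% of the 8977 tested genes with a window. The antioxidant response element core also stood in the first of 2 windows of Mgst1, at chr6:138140277-138140576 on the plus strand of GRCm38.p6, beginning 56 bases before the start. It is printed with its core in capitals, in reverse complement, because Mgst1 was the transferase outside the 10 genes that was lower over 8 libraries. The core stood in windows of 17.2% of the 8977 tested genes with a window. Mgst1 was picked for its call, and windows of the other called genes of the wider lists are not shown. A link between the match and the level of Mgst1 was not tested.
Mgst1: ggggcttgGCACGGTCAggaggcgg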
